A study of Mus musculus with 4 samples.

Results

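The genes described here are Wnt4, Wnt5a and Wnt7a, which encode secreted signalling proteins of the Wnt family. They were followed through every interval of 4 peak lists that touched a fixed window around each gene. The windows were chromosome 4, 136780000 to 136900000 (Wnt4), chromosome 14, 29270000 to 29390000 (Wnt5a), and chromosome 6, 91260000 to 91410000 (Wnt7a), taken as mm9 positions. They were set by position and not by a measured value, but with earlier results of these data known. The windows held 18 of the 35977 intervals in the lists, of which 6 lay in the Wnt4 window, 4 in the Wnt5a window and 8 in the Wnt7a window.

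The lists came from chromatin immunoprecipitation and sequencing (ChIP-seq) of whole uterus of female mice. One antibody was to FOXA2, a forkhead transcription factor of the uterine glands. The other (POL2) recognised the polymerase that makes messenger RNA when serine 2 of its tail repeat is phosphorylated, the form that travels along gene bodies during elongation. Mice were taken at postnatal day 12 (PD12), or as adults on days 2.5 and 3.5 of pseudopregnancy, the hormonal state after a sterile mating, with both days on 1 library. No strain, genotype or number of animals is given in the sources used here, and nothing in the labels distinguishes the mice beyond stage. With 1 library for each antibody and stage, differences between stages were not checked by replicates, and no test or p-value is given.

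Wnt proteins are lipid-modified ligands that bind Frizzled receptors, and they act either through beta-catenin or through routes that do not need it. In the uterus Wnt7a is known as a product of the luminal epithelium, and Wnt5a as a product mainly of the stroma that often signals without beta-catenin. Wnt4 is known for its part in forming the Müllerian duct, from which the uterus arises, and in the response of the stroma to pregnancy. Uterine glands grow out of the luminal epithelium after birth, and FOXA2 is needed for them.

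The 3 windows differed in what the POL2 lists held. In the Wnt7a window POL2 domains covered 41.4 kb at PD12 and 2.2 kb in the adult. In the Wnt5a window 1 domain lay at nearly the same place at both stages, covering 30.2 kb at PD12 and 26.0 kb in the adult. In the Wnt4 window the cover was 45.4 kb at each stage, but it belonged to a longer stretch that ran out of the window toward the next gene. FOXA2 was listed once at PD12, in the Wnt4 window. In the adult it was listed once in the Wnt4 window, in 2 places in the Wnt5a window and once in the Wnt7a window.

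Of the 9 PD12 domains in the windows, 4 overlapped an adult domain, namely both at Wnt4, the 1 at Wnt5a and 1 of 6 at Wnt7a, and of the 4 adult domains all overlapped a PD12 one. Over the whole lists these shares were 79.9% and 54.4%. The 5 PD12 domains with no adult counterpart were all at Wnt7a.

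**Figure D1:**
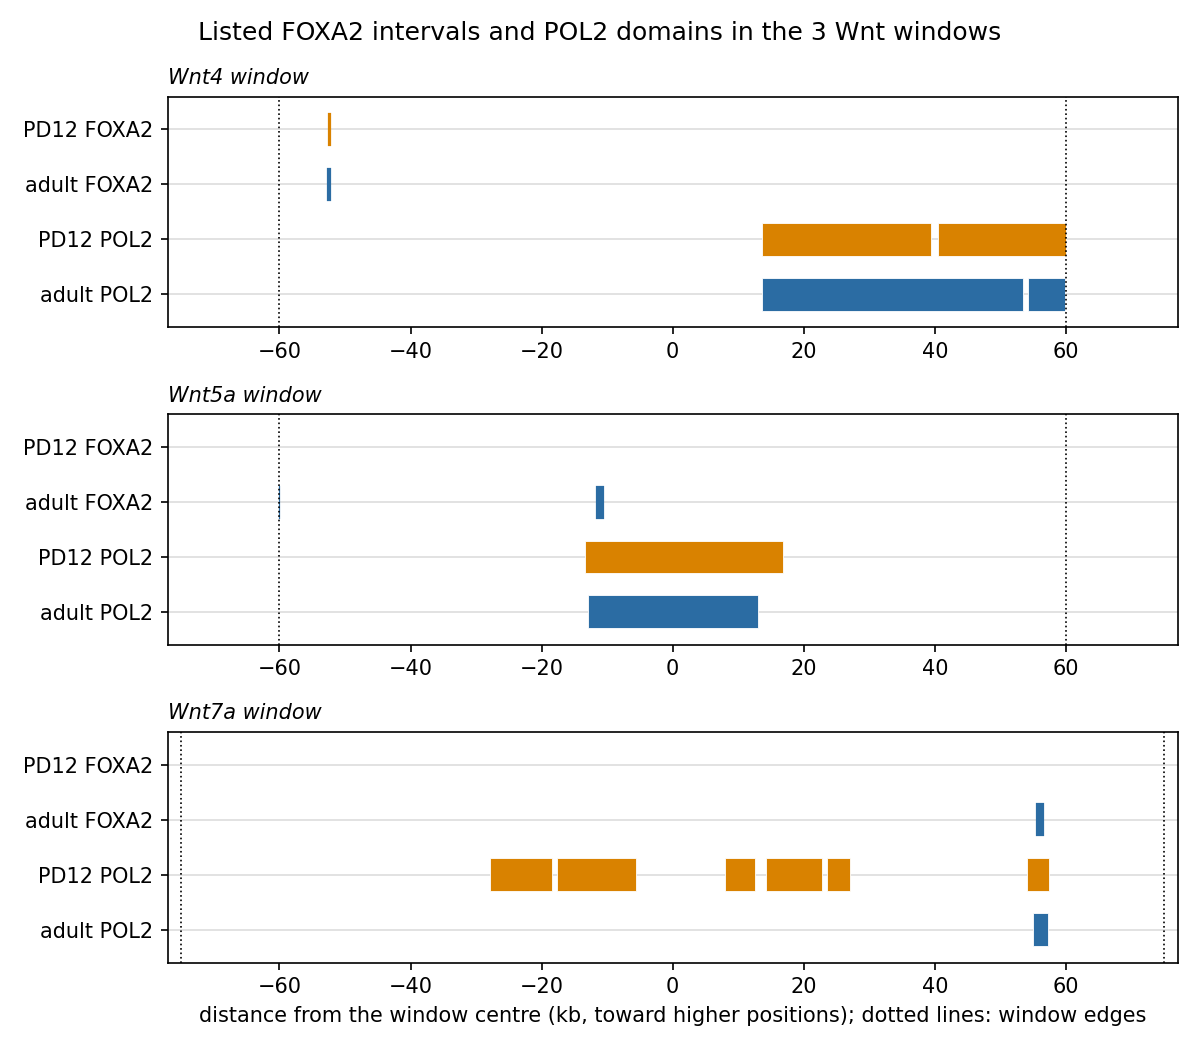
Intervals of the 4 lists in each window, drawn to scale (horizontal axis: kb from the window centre, toward higher positions; rows: lists; orange: PD12; blue: adult; each block is 1 listed interval, cut at the window edge). The Wnt7a window has 6 POL2 domains at PD12 and 1 in the adult, and the adult FOXA2 interval lies in the place where both stages have a domain.

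The lists give positions only, with no height, score or read count. The share of a window inside a POL2 domain therefore describes what was called, and depth and calling threshold can change it. In whole tissue, fewer cells with polymerase on a gene and less polymerase per cell cannot be told apart either. Over the whole genome the adult lists were the longer ones, with 14818 POL2 domains covering 95.2 Mb against 9972 covering 70.4 Mb at PD12, and 10373 FOXA2 intervals against 814. As a background, each chromosome was divided into tiles of the same length as the windows, from its first base to its last listed interval. Of 17549 tiles of 150 kb, 25.8% held any PD12 POL2 and 31.0% any adult POL2. Of 21938 tiles of 120 kb, these shares were 22.7% and 27.7%. Tiles include stretches with no gene, whereas the windows were placed on genes, so the tiles show how common a value was and are no test.

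The sequence before the start of Wnt4 and Wnt7a is shown because their windows contrast. POL2 domains nearly coincide between stages in the Wnt4 window and are mostly listed at PD12 alone in the Wnt7a window. The polymerase in the Wnt4 window cannot be assigned to Wnt4, so the contrast is of windows and not of the 2 promoters. RefSeq's promoter table matched 2 of the 3 genes, Wnt4 and Wnt7a. The runs are the 250 bases before the annotated start, in build GRCm38.p6, which is not the build of the intervals, so no interval can be placed on them. They are written 5′ to 3′ along the gene's strand, with each C followed by G in capitals. Wnt4 is on the plus strand at chr4:137277385-137277634 and Wnt7a on the minus strand at chr6:91411354-91411603.
Wnt4: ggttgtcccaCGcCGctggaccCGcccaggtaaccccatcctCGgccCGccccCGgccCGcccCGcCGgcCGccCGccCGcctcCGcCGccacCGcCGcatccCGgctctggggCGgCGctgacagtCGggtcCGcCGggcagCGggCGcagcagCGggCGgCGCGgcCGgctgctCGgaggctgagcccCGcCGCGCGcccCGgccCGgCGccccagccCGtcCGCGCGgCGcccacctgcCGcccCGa
Wnt7a: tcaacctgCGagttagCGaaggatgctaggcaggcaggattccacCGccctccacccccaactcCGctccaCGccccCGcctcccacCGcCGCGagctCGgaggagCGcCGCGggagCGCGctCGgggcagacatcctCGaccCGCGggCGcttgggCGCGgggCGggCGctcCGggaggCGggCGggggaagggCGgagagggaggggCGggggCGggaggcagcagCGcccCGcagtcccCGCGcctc

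Both sequences were rich in G and C. The GC content was 85.2% for Wnt4 and 77.6% for Wnt7a, against a median of 52.4% over 32851 such sequences in the table, and 0.143% and 2.35% of these were as GC-rich. The C-G step occurred 44 times in Wnt4 and 34 times in Wnt7a, against a median of 6. Core words of the forkhead motif were searched on both strands, and a given place can match only 1 of them. The first, TGTTTAC, was in neither sequence and in 3.17% of all upstream sequences. TGTTTGC was in neither and in 4.30% of all. TATTTAC was also in neither, and in 2.73% of all. Any of these words was in 9.73% of all, so a sequence with none is the usual case. Each word holds more A and T than G and C, so a match was unlikely beforehand in sequences this GC-rich. That these letters are missing from 250 bases therefore says nothing about FOXA2 binding, there or elsewhere near the genes.

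Wnt7a showed the largest change in POL2 cover of the 3 windows between the lists. At PD12 the domains ran from 91307200 to 91316599 (9400 bp), from 91317400 to 91329399 (12000 bp), from 91343000 to 91347599 (4600 bp), from 91349200 to 91357799 (8600 bp) and from 91358600 to 91361999 (3400 bp). These 5 domains together spanned 54.8 kb, of which 38.0 kb was covered. Not a single base of that span lay in an adult domain. The gaps within the span were of 0.8 to 1.6 kb apart from 1 of 13.6 kb, from 91329400 to 91342999, which separated a lower pair from an upper group of 3.

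The sixth PD12 domain stood 27.0 kb above the others, at 91389000 to 91392399 (3400 bp). It was the only place in the window with a domain at both stages, the adult one lying at 91390000 to 91392199 (2200 bp), wholly inside the PD12 one. Domains thus covered 27.6% of the window at PD12 and 1.47% in the adult, 18.8 times as much at PD12, and 5.31% of the bases covered at either stage were shared. The fold rests on that single adult domain of 2200 bp. With the window widened by 50 kb on each side, the cover was 16.6% and 3.76%, which is 4.40 times as much at PD12. For all POL2 bases of the lists the shared part was 44.1%, and the PD12 total was 0.739 times the adult total. The 2 lists as a whole therefore went the other way from Wnt7a.

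Such a gap between stages was rare among tiles of that length, but most tiles held no PD12 POL2 and could not show it. As much PD12 cover as in the Wnt7a window was found in 297 of 17549 tiles (1.69%). As much adult cover was found in 4893 (27.9%). More cover at PD12 than in the adult was found in 9.62% of the 150 kb tiles, and less in 23.0%. A PD12 excess of at least the 26.1 percentage points of the Wnt7a window was found in 6 of 17549 tiles (0.0342%). This threshold is the window's own value, and the gene was picked with earlier results of these data known, so the share only places the window among the tiles.

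**Figure D2:**
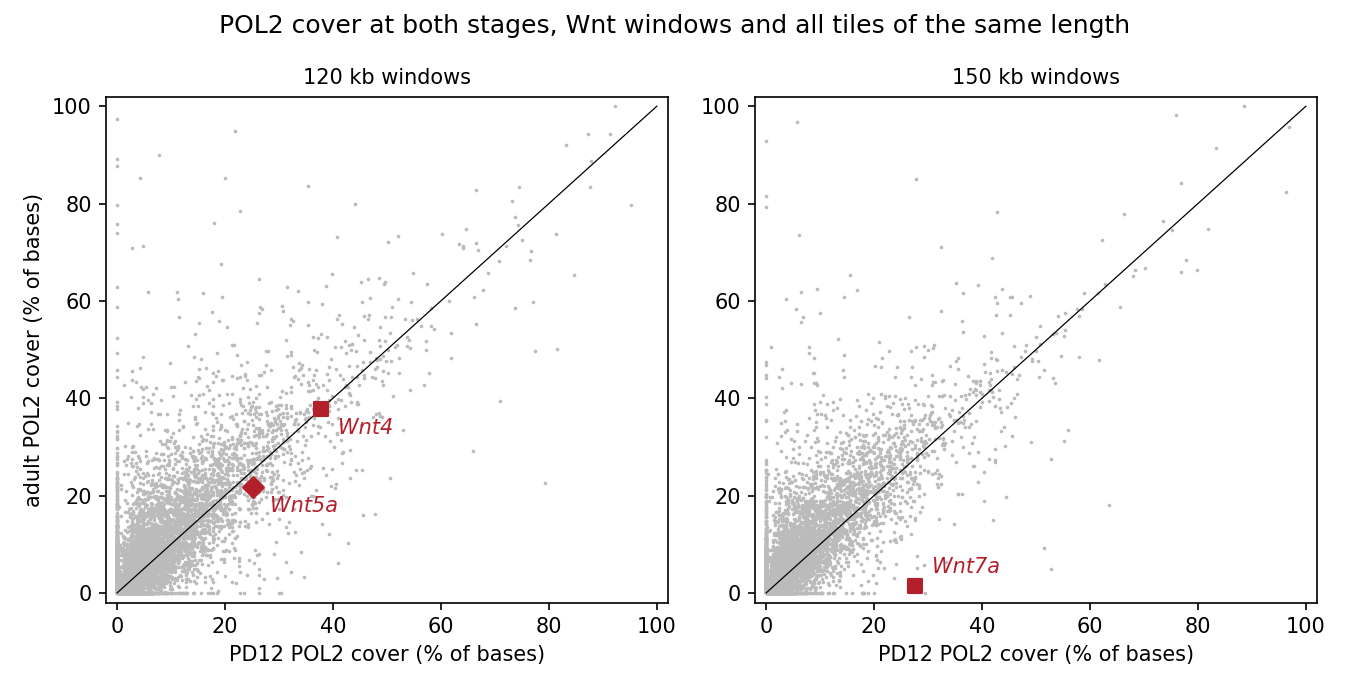
POL2 cover at PD12 (horizontal axis, % of bases) against cover in the adult (vertical axis, % of bases) for each tile with any POL2 (grey points), with tiles of 120 kb on the left and of 150 kb on the right, and the Wnt windows in red. Wnt4 lies on the line of equal cover and Wnt5a just under it, whereas Wnt7a lies at 27.6% and 1.47%.

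The PD12 stretches at Wnt7a were among the longer of those without adult cover. After joining domains across gaps of up to 5 kb, the lower pair became a stretch of 22.2 kb and the upper group one of 19.0 kb. Of all 7607 PD12 stretches, 1476 (19.4%) had no base covered in the adult. Among those 1476, the stretches at Wnt7a ranked 8 and 12 by length. Of the 860 PD12 stretches of at least 19.0 kb, 12 (1.40%) had no adult cover, and 2 of these 12 were the ones in the Wnt7a window. That limit is the length of the shorter Wnt7a stretch, so both were counted by construction. The 12 restates its rank, and these shares only place the stretches in the list. A longer stretch also has more bases that can meet an adult domain, so 1.40% and 19.4% are not shares of like stretches.

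In the RefSeq table, which is for another build (GRCm38), Wnt7a (gene ID 22421) is 47.4 kb long. Its nearest protein-coding neighbours there are Fbln2, which encodes a matrix protein, at 91.4 kb on the lower side, and Chchd4, which encodes a mitochondrial import protein, at 52.9 kb on the upper side. The 5 domains with no adult counterpart thus spanned somewhat more than the gene's length. Exons, introns and the start site were not placed, because no annotation of the build of the files was used here.

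FOXA2 was listed in the Wnt7a window in the adult alone, at 91390370 to 91391617. This interval was 1248 bp wide, and 5.27% of adult FOXA2 intervals were as wide or wider. It lay inside the POL2 domain that both stages share, 370 bp after the start and 582 bp before the end of the adult domain, with 106 bp between the centres. From the PD12 domain its centre was 294 bp away. No other adult FOXA2 interval lay within 287816 bp, and the nearest PD12 one was 2564949 bp away. Of the 150 kb tiles, 34.4% held an adult FOXA2 interval and 4.33% a PD12 one. The nearest of the 5 domains listed at PD12 alone ended 28370 bp below it, and none of the 5 held a FOXA2 interval of either stage.

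Of 2648 adult POL2 domains of 2200 bp or less, 227 (8.57%) overlapped an adult FOXA2 interval. This limit is the width of the adult Wnt7a domain itself. The share over all adult domains was not computed, so the value says nothing particular to narrow domains. Whether signal at the shared place in the Wnt7a window was specific to either antibody was not tested, since the lists give no input values.

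In the Wnt5a window, elongating polymerase was listed at both stages over nearly the same bases. The PD12 domain ran from 29316600 to 29346799 (30.2 kb) and the adult domain from 29317000 to 29342999 (26.0 kb). The adult domain lay wholly inside the PD12 one, which began 0.4 kb earlier and ended 3.8 kb later. Domains covered 25.2% of the window at PD12 against 21.7% in the adult, and 86.1% of the bases covered at either stage were shared. The starts of all POL2 domains fall on steps of 200 bp, so the difference at the lower end equals 2 such steps. Of 21938 tiles of 120 kb, 562 (2.56%) had as much cover at PD12 and 1155 (5.26%) in the adult. More cover at PD12 was found in 8.71% of these tiles and less in 20.7%, and 3.56% had a PD12 excess of at least the 3.50 percentage points at Wnt5a.

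The domain in the Wnt5a window stood alone. The next PD12 domains were 958.0 kb below and 1398.0 kb above the window, and the next adult ones were 17.4 kb below, where a domain of 1400 bp was listed, and 1397.6 kb above. Both domains are longer than the 22.9 kb that RefSeq gives for Wnt5a (gene ID 22418) in GRCm38. Its protein-coding neighbours there are Erc2, a gene of the presynaptic active zone, 26.0 kb below and Cacna2d3, a calcium channel subunit gene, 377 kb above. Wnt5a was not placed on the build of the files either, so the domains are tied to the window and not to the gene.

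FOXA2 was absent from the PD12 list in the Wnt5a window and present in the adult list in 2 places. The first, at 29318300 to 29319470, was 1171 bp wide, and 6.85% of adult FOXA2 intervals were as wide or wider. It lay inside the POL2 domains of both stages, near their lower end, 1300 bp after the start of the adult domain and 1700 bp after that of the PD12 domain. The second, at 29269469 to 29270092 (624 bp), only just met the rule, with 93 bp inside the window. It overlapped no POL2 domain, the nearest adult one being 16869 bp away and the nearest PD12 one 46507 bp away. Of the 120 kb tiles, 11.4% held 2 or more adult FOXA2 intervals, and 3.52% held a PD12 one, so a window with none at PD12 is the usual case.

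**Figure D3:**
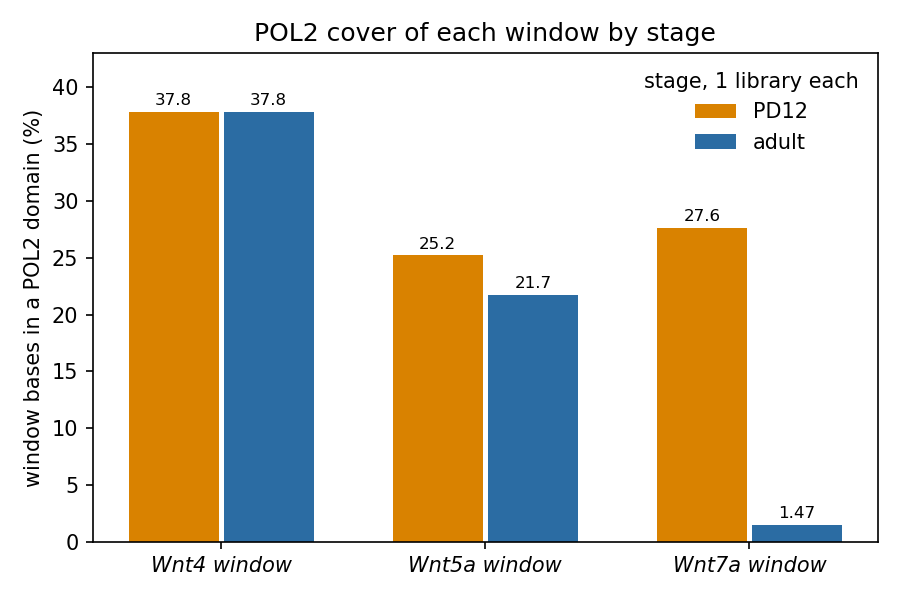
Share of each window inside a listed POL2 domain (vertical axis, % of bases, from 0) at PD12 (orange) and in the adult (blue), 1 library per bar and therefore no error bars. The bars are of equal height for Wnt4, differ by 25.2% against 21.7% for Wnt5a, and by 27.6% against 1.47% for Wnt7a.

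In the Wnt4 window the POL2 lists of the stages were almost the same, but the polymerase cannot be assigned to Wnt4. At PD12 the domains were 136853600 to 136879399 (25.8 kb) and 136880400 to 136900199 (19.8 kb), and in the adult 136853600 to 136893399 (39.8 kb) and 136894200 to 136899799 (5.6 kb). The first domain began at the same position at both stages. Cover was 37.8% at each stage, with 95.7% of the bases covered at either stage shared. What differed was where the domains were broken, by a gap of 1.0 kb at PD12 and 1 of 0.8 kb in the adult. A further adult gap of 1.0 kb began at 136899800, just inside the window edge. Of the 120 kb tiles, 199 (0.907%) had as much cover at PD12 and 346 (1.58%) in the adult.

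These domains were part of a stretch that left the window. Joined across gaps of up to 5 kb, it ran from 136853600 to 136915599 at PD12 (62.0 kb, 15.6 kb of it beyond the window) and to 136914599 in the adult (61.0 kb). The lower 73.6 kb of the window, 61.3% of it and including its centre, had no POL2 at either stage. In GRCm38, Wnt4 (gene ID 22417) is 21.9 kb long, and the next protein-coding gene on the upper side is Cdc42, 20.2 kb away and 38.1 kb long. From the lower end of Wnt4 to the upper end of Cdc42 is 80.1 kb there, more than the length of the stretch. At the lengths of that build, the stretch was therefore longer than either gene alone and too short to cover both from end to end. Neither gene was placed on the build of the files, so polymerase on Wnt4 and polymerase on Cdc42 cannot be told apart here.

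The Wnt4 window had the only FOXA2 site that was listed at both stages. The PD12 interval, 136787485 to 136787868 (384 bp), and the adult interval, 136787324 to 136787853 (530 bp), shared 369 bp, with 88 bp between their centres. The adult interval was not among the widest 50% of its list, nor in the adult list reduced by width to the length of the PD12 list, so under both of these the site was listed at PD12 alone. Overlap with the adult list was the common case for PD12 intervals as a whole, at 72.1%, and the uncommon case for adult intervals, at 5.65%. The PD12 interval was wider than 72.5% of its list, whereas the adult one was wider than 19.2% of its list. A tile of 120 kb held a PD12 FOXA2 interval in 3.52% of cases and an adult one in 29.9%.

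This site was far from listed polymerase. The nearest POL2 domain of either stage began 65731 bp above the PD12 interval and 65746 bp above the adult one. It also lay near the edge of the window, 7485 bp and 7324 bp from its lower end. Just outside the upper edge, 12.8 kb away, the PD12 list had another FOXA2 interval, 136912756 to 136913139 (384 bp), which lay inside the PD12 POL2 stretch that runs out of the window. The adult FOXA2 intervals nearest to the window were 40.3 kb below it (755 bp wide) and 52.4 kb above it (1282 bp wide).

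Across the 3 windows, 2 of the 4 adult FOXA2 intervals and not the 1 PD12 interval overlapped a POL2 domain of the same stage. In the whole lists this held for 19.4% of adult and 20.3% of PD12 intervals. Both adult intervals in POL2, at Wnt5a and at Wnt7a, overlapped domains of both stages. In the adult list 2012 intervals overlapped an adult POL2 domain, and 1050 of these (10.1% of the whole list) overlapped domains of both stages. Overlap with both stages was therefore common among intervals in adult POL2. The intervals in POL2 at Wnt5a and Wnt7a were also the wide ones of the 4, at 1171 and 1248 bp against 530 and 624 bp. Of all adult FOXA2 intervals at least 1171 bp wide, 68.2% overlapped an adult POL2 domain, and of those up to 624 bp wide, 7.95% did. With 4 intervals, the windows add no evidence of their own on that relation.

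**Figure D4:**
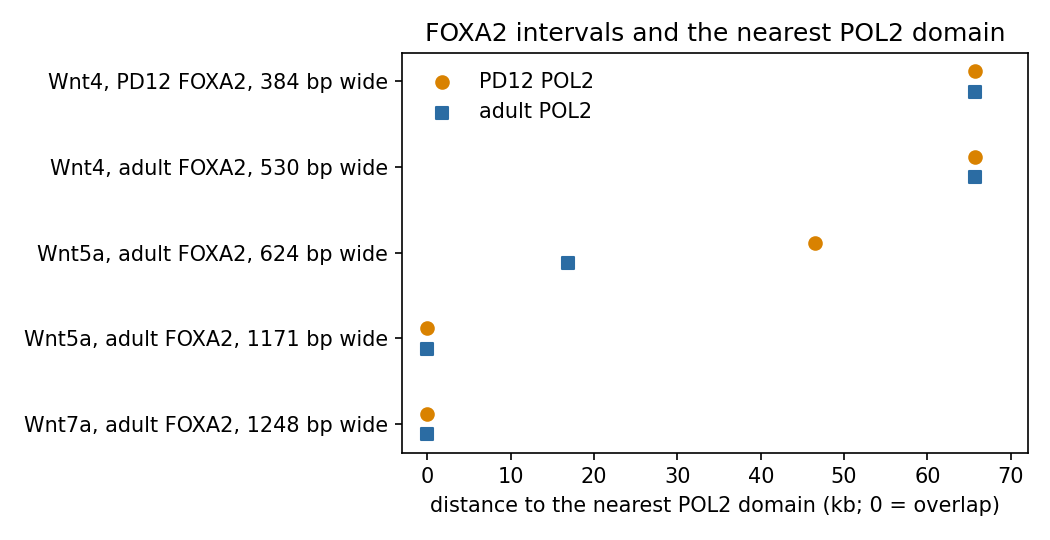
Distance from each of the 5 FOXA2 intervals of the windows (rows, with gene, stage and width) to the nearest POL2 domain at PD12 (orange circles) and in the adult (blue squares), in kb, where 0 is an overlap. The 2 wide adult intervals at Wnt5a and Wnt7a are at 0 for both stages, and the Wnt4 pair lies 65731 bp (PD12) and 65746 bp (adult) from POL2 of either stage.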

How the data were processed

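Per the file headers, each of the 4 deposited lists holds the chromosome, start and end of intervals called by the authors, 1 list per library. BWA is named in the submitters' processing notes, with no version. The sources used here do not give the caller, its threshold, any use of input DNA or the build. The build was taken as mm9 with the windows, so the gene table of GRCm38 was used for names, lengths and neighbours only. On 9 chromosomes, 260 intervals lay beyond the last gene of GRCm38, which does not by itself settle the build. The labelled tissue was not checked against marker genes, and other Wnt pathway genes were not analysed here, for want of an mm9 annotation.

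Positions were counted as inclusive. Intervals with at least 1 bp in a window were members, and each was named, with the nearest interval outside. Overlap meant at least 1 bp, and stretches joined domains across gaps of up to 5 kb. The counting was tested on 20 simulated pairs of lists and recovered each exactly. The genes, windows and comparisons were chosen with earlier results of these data known. The tiles, window borders, list reductions and joining were planned; the ranking of stretches, the Wnt7a excess and the promoter words were chosen after the files were read. Depth per library is unknown. Python 3.11.15, numpy 2.4.6 and matplotlib 3.10.9 were used.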

Additional observations from a re-analysis of the deposited data

How the results depend on the processing

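Over 19 results and 68 alternatives, 51 values stayed within 1.5 times the reported one and 17 did not. FOXA2 counts are small and moved with the window. With 50 kb more on each side, the Wnt4 window held 2 intervals at PD12 and 2 in the adult. With 20 kb less, it held 0 and 0, the Wnt5a window held 1 in the adult and the Wnt7a window 0. In the widest 50% of each list, and with the adult list reduced to the length of the PD12 list by width, the adult count was 0 at Wnt4, whose site was then no longer listed at both stages, and 1 at Wnt5a. POL2 cover in windows widened by 50 kb was 13.7% at PD12 and 12.5% in the adult for Wnt5a, and 16.6% and 3.76% for Wnt7a, where a further adult domain 24.2 kb above the window came in. The adult cover of the Wnt7a window was 0.000909%, a single base, with 20 kb less on each side, and 0% both in the widest 50% of the list and in the reduced list. PD12 cover of the Wnt7a window was above adult cover under each of the 5 alternatives. FOXA2 sharing between stages stayed within 1.5 times under the other overlap rules, as did POL2 sharing with merged domains and widened windows, and the overlap of FOXA2 with POL2 with centres inside domains and merged domains. No paired analysis was possible because there was 1 library for each stage and antibody. A stricter threshold by the authors' score was not run, as width took its place, and unknown depth limits each comparison of stages.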
